A study of Mus musculus with 6 samples.

Results

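The F-box and Kelch-like genes described here are the substrate adaptors whose symbols begin with Fbxl, Fbxw, Fbxo or Klhl followed by a number. They were chosen by symbol alone, and 100 of the 17132 genes in the deposited table met the rule, namely 18 Fbxl, 14 Fbxw, 37 Fbxo and 31 Klhl genes. Their transcript ends were measured in whole testes of FVB mice at 1, 2, 3, 4, 5 and 6 weeks (w) after birth, the period of the first wave of spermatogenesis, with 1 library per week. The method was 3'READS, which selects poly(A)+ RNA fragments that end at the poly(A) tail and sequences them, so that each read marks the polyA site (pA) its transcript used. The comparison made was 4–6 week samples (4w, 5w and 6w) with 1–3 week samples (1w, 2w and 3w), for expression and for alternative polyadenylation (APA). All mice were of the same strain and untreated, and the labels do not say how many animals gave each sample. Each group thus holds 3 libraries of different ages, the p-values below measure the spread among these libraries, and no test was made between single weeks.

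F-box proteins bring substrates to the SCF ubiquitin ligase, in which the scaffold cullin Cul1 holds the adaptor Skp1 and a RING protein, and the F-box motif binds Skp1. The letter after Fbx names the substrate-binding part, which is leucine-rich repeats in Fbxl, WD40 repeats in Fbxw and other or no known repeats in Fbxo. Kelch-like proteins bind Cul3 through a BTB domain and substrates through Kelch repeats. Ubiquitin ligases of these classes act in cell cycle control and meiosis, and in the late remodelling of sperm many proteins are removed through ubiquitin. Where a gene uses a pA close to the stop codon its 3'UTR is short, and where it uses a pA in an intron within the coding region the transcript can encode a truncated protein.

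The table assigned 3831545, 3497870, 3594868, 4026419, 4771294 and 5427850 reads to single genes at 1w to 6w. This is 77.0–83.3% of the study's total of mapped reads with evidence of a poly(A) tail (PASS reads) per library. The 10 most abundant genes took 20.3%, 29.0% and 32.4% of these reads at 4w, 5w and 6w, against 8.65%, 8.55% and 9.06% at 1w, 2w and 3w. Markers of most cell types moved with age. The summed level of the 7 measured spermatid markers (of 8 listed) was 83751, 158388 and 186965 RPM (reads scaled to the study's PASS read total of each library) at 4w, 5w and 6w, against 443, 67.5 and 534 RPM at 1w, 2w and 3w, with Akap4 at 0 at 1w and Acrv1 and Akap4 at 0 at 2w. The sum of the 5 measured Sertoli cell markers (of 6 listed) was 6.57–18.2 RPM at 4–6w and 59.2–299.9 RPM at 1–3w, with no marker at 0. Spermatogonial markers summed to 117–247 RPM at 4–6w and 555–1973 RPM at 1–3w (6 of 6 measured, with Gfra1 at 0 at 1–3w and Zbtb16 at 0 at 5w and 6w), and spermatocyte markers were highest at 3w, with 11995 RPM (8 of 8 measured). The most abundant marker gave 1851 of the 1973 RPM of spermatogonial markers at 2w and 10320 of the 11995 RPM of spermatocyte markers at 3w. Leydig cell markers (5 of 6 measured) overlapped between the groups, with 440, 302 and 222 RPM at 4–6w and 479, 464 and 357 RPM at 1–3w. In these whole-testis samples fewer cells of a type and less RNA per cell cannot be told apart, and the part of cell composition in the results below was not tested.

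The 100 genes held 440 pAs, of which 277 were in the 3'-most exon, 98 in introns, 8 in upstream exons and 57 on the opposite strand upstream of the start site. Last-exon reads were found for 97 genes, and 65 genes had at least 100 of them over all libraries. The other 3 genes, Fbxo40, Fbxo47 and Klhl34, had no last-exon read, and with these included 18 of the 100 genes had fewer than 20. Among the genes with few reads are Fbxw15, Fbxw18, Fbxw20, Fbxw21 and Fbxw26, all on chromosome 9. Whether mapping affected their reads was not checked, and nothing more is reported on these genes. Of the genes with last-exon reads, 66 had 2 or more last-exon pAs and 31 had 1, while 46 genes had at least 1 intronic pA.

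The sequences before the pAs whose usage changed show which polyadenylation signal (PAS) stood at the proximal (Prx) and the distal (Dis) site. For each gene the pair compared was that of its 2 most used pAs in the 3'-most exon, and the one nearer to the stop codon is the Prx-pA. Each window below is 30 nt of the mm9 genome, read 5' to 3' on the strand of the gene, and begins 40 nt before the pA. Capitals mark a PAS hexamer where the 40 nt before the pA hold one, and a window with no capitals holds none. The hexamers searched were AATAAA, then ATTAAA, then the variants AGTAAA and TATAAA and CATAAA and GATAAA and AATATA and AATACA and AATAGA and AATGAA and ACTAAA and AAGAAA. They are shown for the 6 genes with the largest fitted change in usage among those called by the test below.
Fbxo46 Prx-pA, chr7:19722749-19722778, + strand, 3'UTR of 170 nt: gaccaggtttggggatcaacagggcaaata
Fbxo46 Dis-pA, chr7:19723565-19723594, + strand, 3'UTR of 986 nt: tgaattggtcgtttcTATAAAatcaatatt
Fbxo27 Prx-pA, chr7:29483536-29483565, + strand, 3'UTR of 174 nt: cttgttttcagagtctgtaacattgaagcc
Fbxo27 Dis-pA, chr7:29484318-29484347, + strand, 3'UTR of 956 nt: ctgccaatctcactgtAATAAAttgattat
Klhl12 Prx-pA, chr1:136386151-136386180, + strand, 3'UTR of 155 nt: caccagtgctgagatgatgattgtacttgt
Klhl12 Dis-pA, chr1:136387409-136387438, + strand, 3'UTR of 1413 nt: tgtatttttttaagaaaacATTAAAatgga
Klhl7 Prx-pA, chr5:23665642-23665671, + strand, 3'UTR of 133 nt: ttGATAAAgtaagattccaataagataaca
Klhl7 Dis-pA, chr5:23666567-23666596, + strand, 3'UTR of 1058 nt: atcaatgtttttatctgatATTAAAtattt
Klhl24 Prx-pA, chr16:20123268-20123297, + strand, 3'UTR of 128 nt: ataaagaAATAAAtaatcctgatgcctttc
Klhl24 Dis-pA, chr16:20125501-20125530, + strand, 3'UTR of 2361 nt: tccattcataaatataTATAAAagacttgg
Fbxl15 Prx-pA, chr19:46404896-46404925, + strand, 3'UTR of 154 nt: tcccaccctggaatttcaAATAAAgagctt
Fbxl15 Dis-pA, chr19:46405322-46405351, + strand, 3'UTR of 580 nt: ggcctgtcaggcaatcaagcAATGAAtgac
The Prx-pAs of Fbxo46, Fbxo27 and Klhl12 had no hexamer of the list, the Prx-pA of Klhl7 had only GATAAA at 38 nt before the cleavage position, and that of Klhl24 had AATAAA at 33 nt. The Dis-pAs of Klhl12 and Klhl7 had ATTAAA 21 nt before the pA and that of Fbxo27 had AATAAA 24 nt before it. Fbxl15, which moved towards its Dis-pA, had AATAAA at the Prx-pA and AATGAA at the Dis-pA. Over all their last-exon pAs, F-box and Kelch-like genes had AATAAA in the 40 nt before 43.7% of 277 pAs and ATTAAA (with no AATAAA) before 14.4%, against 38.9% and 14.1% of the 45622 last-exon pAs of all genes. On the opposite strand of the same windows, where a PAS has no role, AATAAA was found in 4.33% of the windows of F-box and Kelch-like genes and 5.46% of those of all genes. A match describes the letters of the window and does not show that they are used.

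Over the 6 libraries F-box and Kelch-like genes had 133631 last-exon reads, and a few genes held most of them. Fbxo21 alone had 36136 reads, or 27.0%, and the 5 most abundant genes (Fbxo21, Fbxo9, Fbxw8, Fbxo27 and Fbxw11) had 53.5%. The median of all 100 genes, those without reads included, was 238 reads. Summed over the F-box and Kelch-like genes, last-exon reads came to 3074, 2623 and 1993 RPM at 4w, 5w and 6w, against 6820, 7815 and 5092 RPM at 1w, 2w and 3w. The groups did not overlap, and each 4–6 week library was below each 1–3 week library. RPM is a share of all reads in a library, so it also moves with the spermatid transcripts that filled the 4–6 week libraries. Of the 82 genes with at least 20 reads, the highest RPM was found in the 1w library for 29, the 2w library for 33 and the 3w library for 10. The 4w, 5w and 6w libraries held the highest RPM of 1, 6 and 3 genes. A peak at 2w was thus found in 40.2% of them, against 25.7% of the 13553 genes of the table with as many reads. A peak at 4w, 5w or 6w was found in 1.22%, 7.32% and 3.66% of them, against 5.42%, 5.95% and 8.63% of those 13553 genes.

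To compare expression between the groups, last-exon reads of each gene were summed and tested with edgeR over the 11269 genes that passed its filter on low counts, 70 of them F-box or Kelch-like genes. A gene with few reads passed this filter only where enough libraries had reads. Fbxo39, Fbxo24 and Fbxo2, with 0 to 7 reads in each 1–3 week library, passed only through 4–6 week libraries. Klhl13, Klhl26, Klhl29, Fbxo10 and Fbxo41, with 0 to 8 reads in each 4–6 week library, passed only through 1–3 week libraries. The calls of such genes are therefore not independent of the filter. Counts were scaled by TMM, which puts the median gene near no change (a log2 change of −0.07 in 4–6 week over 1–3 week samples), so a change below is one relative to the other genes. When libraries were scaled by the study's read totals, the median of all genes was −1.39. Of the 70 F-box and Kelch-like genes, 8 were significantly higher in 4–6 week samples (11.4%, where 17.7% of all genes tested were called higher) and 18 were lower (25.7%, where 22.5% of all genes tested were called lower). Their median log2 change was −0.52, against −0.07 for all genes. By class, 2 Fbxl, 4 Fbxo and 2 Klhl genes were higher, 3 Fbxl, 3 Fbxw, 6 Fbxo and 6 Klhl genes were lower, and no Fbxw gene of the 8 tested was higher. With the study's totals 24 of these 26 genes were called in the same direction, and Fbxl15 and Klhl8 were not called. Calls were sensitive to single libraries: 0 genes were lower without 5w, 0 without 6w, 2 without 2w, 3 without 4w, 10 without 1w and 29 without 3w, and 4 genes were higher without 2w, 4w, 5w or 6w, 7 without 1w and 18 without 3w. The counts over all genes moved too, with 0 lower and 338 higher without 5w, 12 and 450 without 6w, 215 and 725 without 2w, and 4123 and 4392 without 3w. The 4 genes higher in every one of these fits were Fbxo39, Fbxo24, Fbxo2 and Fbxo44, and none of the 18 lower genes was called in every fit.

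**Figure D1:**
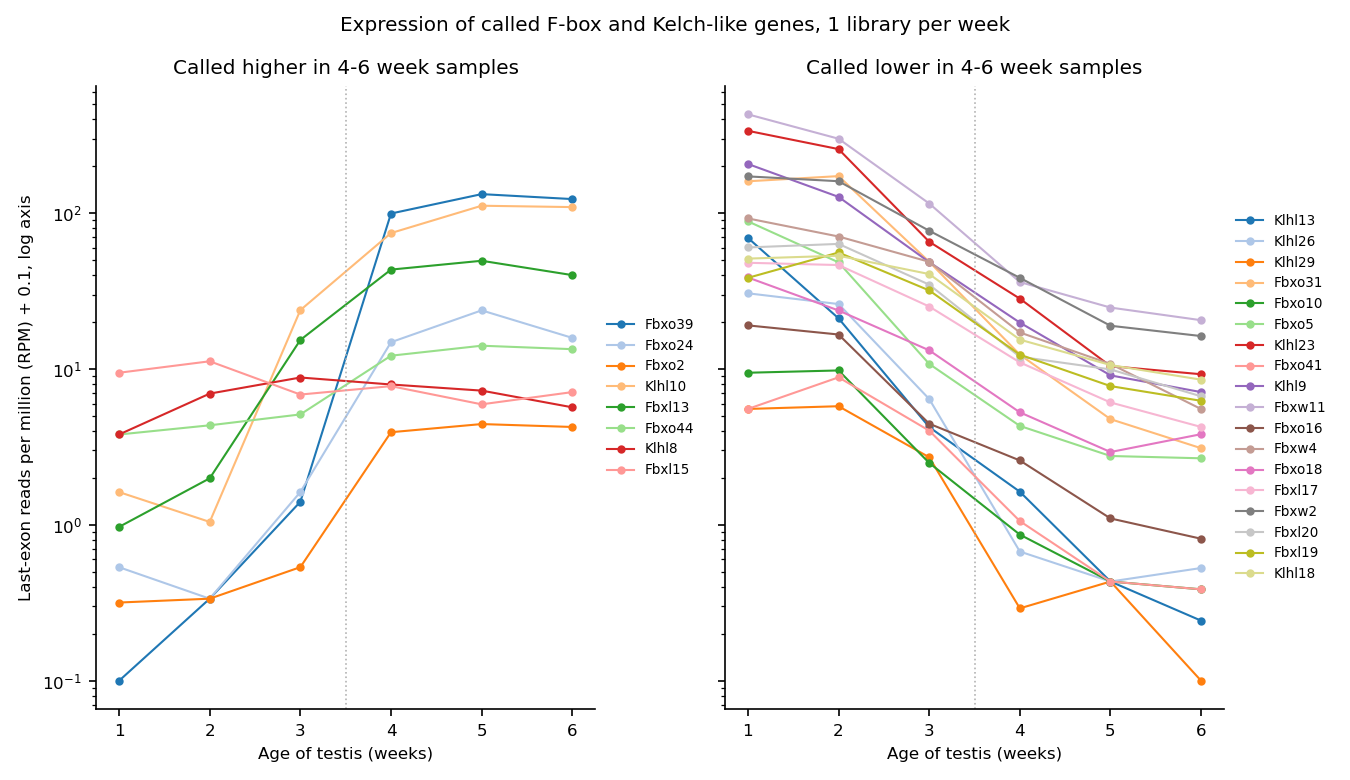
Last-exon RPM (with 0.1 added, log axis) of the 8 F-box and Kelch-like genes called higher in 4–6 week samples (left) and the 18 called lower (right) at each week, with 1 library per point and a dotted line between 1–3 week and 4–6 week samples. Fbxo39 stood at 99.1–132 RPM from 4w on and at most at 1.31 RPM before, while Fbxl15 and Klhl8 overlapped between the groups on this scale.

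Fbxo39 had the largest fitted rise of the 70 F-box and Kelch-like genes tested. It had 518, 793 and 859 reads (99.1, 132 and 123 RPM) at 4w, 5w and 6w, against 0, 1 and 6 reads (0, 0.236 and 1.31 RPM) at 1w, 2w and 3w. The log2 change was 9.02 ± 1.20 (SE, adjusted p = 0.00742 in edgeR), and it lay between 8.41 and 11.18 with each library left out. Fbxo24, an F-box protein needed for male fertility in mice, followed the same course at a lower level. Its reads were 77, 142 and 110 (14.7, 23.6 and 15.7 RPM) at 4–6w and 2, 1 and 7 (0.435, 0.236 and 1.52 RPM) at 1–3w, a log2 change of 5.84 ± 0.74 (adjusted p = 0.00694). For both genes the switch fell between 3w and 4w, and the groups were far apart. Fbxl13, the counterpart of a subunit of the nexin-dynein regulatory complex of motile cilia in Chlamydomonas, began earlier. It had 226, 296 and 279 reads at 4–6w and 4, 8 and 70 at 1–3w, with 15.2 RPM already at 3w and 43.2, 49.3 and 39.9 RPM from 4w (log2 change 4.03 ± 1.14, adjusted p = 0.0339). This call was lost without 2w, 4w, 5w or 6w, with adjusted p up to 0.116 without 6w.

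Klhl10, a Cul3 adaptor of the male germ line whose haploinsufficiency makes male mice infertile, also rose from 3w on. Its reads were 388, 668 and 763 (74.2, 111 and 109 RPM) at 4–6w, against 7, 4 and 109 (1.52, 0.944 and 23.7 RPM) at 1–3w. The log2 change was 4.66 ± 1.40 (adjusted p = 0.0397). The call held without 3w and was lost without any other library, with adjusted p up to 0.125, and the 3w library lay between the earlier and the later ones. The gene ends in 3 closely spaced last-exon pAs at 14 nt before the end of the stop codon (268 reads), 37 nt after it (911 reads) and 78 nt after it (760 reads), so its last-exon pAs left very short 3'UTRs or none. Fbxo39 likewise had a pA 39 nt before the end of its stop codon with 165 reads beside its main pA at 208 nt with 1970 reads. These were the only 2 of the 8 last-exon pAs before a stop codon that had at least 100 reads.

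Fbxo2, Fbxo44 and Fbxo6 lie side by side on chromosome 4 and encode members of an F-box subfamily, in which Fbxo2 and Fbxo6 bind N-glycosylated proteins. In mm9 Fbxo6 spans positions 147519825 to 147526249, Fbxo44 147526909 to 147534591 (both on the minus strand) and Fbxo2 147534730 to 147540533 (plus strand), which leaves 138 nt between the starts of Fbxo44 and Fbxo2. Fbxo2 had 20, 26 and 29 reads (3.83, 4.33 and 4.14 RPM) at 4–6w and 1, 1 and 2 reads (0.218, 0.236 and 0.435 RPM) at 1–3w, with a log2 change of 4.98 ± 0.50 (adjusted p = 0.00641). Fbxo44 had 63, 84 and 93 reads (12.1, 14 and 13.3 RPM) at 4–6w and 17, 18 and 23 reads (3.70, 4.25 and 5.01 RPM) at 1–3w, with a log2 change of 2.93 ± 0.37 (adjusted p = 0.00702). Neither gene overlapped between the groups. Fbxo6 did overlap, with 5.55, 5.33 and 6.29 RPM at 4–6w and 5.00, 8.73 and 8.71 RPM at 1–3w, and was not called (log2 change 0.95 ± 0.40, adjusted p = 0.0958). Fbxo27, a relative of the same subfamily on chromosome 7, was abundant throughout and not called, with 128, 75.6 and 41.4 RPM at 4–6w and 352, 515 and 248 RPM at 1–3w (log2 change −0.91 ± 0.39, adjusted p = 0.0993). Reads were assigned by strand, so reads of the minus-strand Fbxo44 and the plus-strand Fbxo2 are kept apart.

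The other 2 genes called higher, Fbxl15 and Klhl8, were higher only relative to the other genes. Fbxl15, which in human cells targets the ubiquitin ligase Smurf1, had 7.65, 5.83 and 7.0 RPM at 4–6w and 9.35, 11.1 and 6.75 RPM at 1–3w. Klhl8 had 7.85, 7.16 and 5.57 RPM at 4–6w and 3.70, 6.84 and 8.71 RPM at 1–3w. On the TMM scale Fbxl15 stood at 12.8, 12.5 and 18.3 CPM at 4–6w and 7.27, 8.35 and 6.78 at 1–3w, with a log2 change of 0.96 ± 0.29 (adjusted p = 0.0398), which became −0.41 with the study's totals. For Klhl8 the log2 change was 1.36 ± 0.43 (adjusted p = 0.0459) and 0.09 with the study's totals. Both calls were lost in 5 of 6 fits that left out a library, and held only without 3w.

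Several F-box genes were not called and had a 3w library that lay near the later weeks or above them. Fbxo43 (Emi2), an inhibitor of the anaphase-promoting complex that is required for meiosis in male mice, peaked at 3w, with 115, 80.3 and 56.9 RPM at 4–6w and 8.05, 31.9 and 215 RPM at 1–3w (log2 change 1.06 ± 1.13, adjusted p = 0.451). Fbxw5, which in human cells acts on the centriole protein SAS-6, also peaked at 3w, with 160, 107 and 76.9 RPM at 4–6w and 43.5, 46.7 and 230 RPM at 1–3w (adjusted p = 0.238). In contrast, Fbxo5 (Emi1), the inhibitor of the same complex in mitotic cells, was lower in 4–6 week samples. It had 4.21, 2.66 and 2.57 RPM at 4–6w and 88.3, 48.1 and 10.7 RPM at 1–3w, without overlap (log2 change −2.57 ± 0.67, adjusted p = 0.0280). Fbxo30 reached 78.8, 85.1 and 91.4 RPM at 4–6w, against 12.0, 17.2 and 75.1 RPM at 1–3w, and missed the threshold (log2 change 2.5 ± 0.85, adjusted p = 0.0553). Fbxo36 did so too, with 54.2, 52.4 and 64.9 RPM at 4–6w and 2.17, 7.79 and 49.4 RPM at 1–3w (log2 change 2.71 ± 1.15, adjusted p = 0.0953). In Fbxo30 and Fbxo36 each 4–6 week library was above each 1–3 week library in RPM. This held for 8 of the 70 genes tested (11.4%) and for 14.3% of all 11269 genes tested.

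The 18 genes called lower included the largest falls among Klhl genes. Klhl13, an X-linked Cul3 adaptor that acts with Klhl9 on Aurora B in dividing human cells, had 1.53, 0.333 and 0.143 RPM at 4–6w and 69.2, 21 and 4.14 RPM at 1–3w (log2 change −4.27 ± 1.14, adjusted p = 0.0296). Its partner Klhl9 had 19.7, 8.99 and 7.0 RPM at 4–6w and 206, 127 and 48.3 RPM at 1–3w (log2 change −2.11 ± 0.52, adjusted p = 0.0249). Both were highest at 1w and fell from week to week. Klhl26 had 3, 2 and 3 reads at 4–6w and 140, 110 and 29 reads at 1–3w (log2 change −4.11 ± 0.64, adjusted p = 0.0105). Klhl29 had 1, 2 and 0 reads at 4–6w and 25, 24 and 12 at 1–3w (adjusted p = 0.0192), a call that became an adjusted p of 0.0758 when intronic reads were counted too. Klhl23 was far more abundant, with 28.1, 10.3 and 9.14 RPM at 4–6w and 336, 257 and 65.3 RPM at 1–3w (log2 change −2.48 ± 0.61, adjusted p = 0.0247). In all 5 Klhl genes the 3w library was the lowest of the 1–3 week samples and still above each 4–6 week library.

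Among the F-box genes, Fbxo31, which directs cyclin D1 to degradation in human cells after DNA damage, had 12.2, 4.66 and 3.00 RPM at 4–6w and 159.6, 172 and 48.5 RPM at 1–3w (log2 change −2.97 ± 0.56, adjusted p = 0.0164). Fbxw11 (beta-TrCP2), which recognises phosphorylated substrates such as beta-catenin, was the most abundant of the lower genes. It had 36.0, 24.6 and 20.4 RPM at 4–6w and 429, 299 and 115 RPM at 1–3w (log2 change −2.02 ± 0.45, adjusted p = 0.0205). Fbxo10 (log2 change −2.58 ± 0.60, adjusted p = 0.0226) and Fbxo41 (−2.21 ± 0.48, adjusted p = 0.0200) were scarce, with at most 0.957 RPM at 4–6w and 2.39–9.68 RPM at 1–3w. Fbxo16, Fbxw4, Fbxo18, Fbxl17, Fbxw2, Fbxl20, Fbxl19 and Klhl18 were lower by 0.78–1.93 on the log2 scale. All 18 genes had each 4–6 week library below each 1–3 week library in RPM, which also held for 51 of the 70 genes tested (72.9%) and for 60.6% of all 11269 genes tested. Of the other abundant genes, Fbxo21 (829, 799 and 590.6 RPM at 4–6w and 1614, 2528 and 1032 RPM at 1–3w, log2 change 0.15 ± 0.45, adjusted p = 0.798), Fbxo9 (402, 332 and 192 RPM at 4–6w and 788, 889 and 931 RPM at 1–3w, log2 change −0.23 ± 0.39, adjusted p = 0.632) and the Cul7 partner Fbxw8 (log2 change −0.76 ± 0.33, adjusted p = 0.0970) were not called.

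The second comparison asked whether F-box and Kelch-like genes changed their 3'UTR with age. For each gene the Dis-pA to Prx-pA ratio of 4–6 week samples was compared with that of 1–3 week samples, in 4271 genes that had at least 20 reads of the pair in every library, 33 of them F-box or Kelch-like genes. The ratio was lower in 9 of the 33 genes (27.3%, where 34.5% of all genes tested were called lower) and higher in 2 (6.06%, where 1.29% of all genes tested were called higher). Their median log2 change was −0.77, against −1.11 for all genes tested. The lower genes included Fbxo46, Fbxo27, Klhl12, Klhl7, Klhl24, Fbxo30, Fbxo21 and Fbxo42, and the higher ones were Klhl5 and Fbxl15. None of the 4 Fbxw genes was called in either direction, and 5 of the 16 Fbxo genes and 3 of the 8 Klhl genes were lower. In 12 of the 33 genes each 4–6 week library had a lower Dis-pA share than each 1–3 week library (36.4%, where it was 45.8% of all genes tested), and in 4 genes a higher one (12.1%, where it was 5.10%). Of the 9 lower genes, 8 were called with any library left out, the exception being Fbxo42 without 2w (adjusted p = 0.0589) or 6w (adjusted p = 0.0510).

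**Figure D2:**
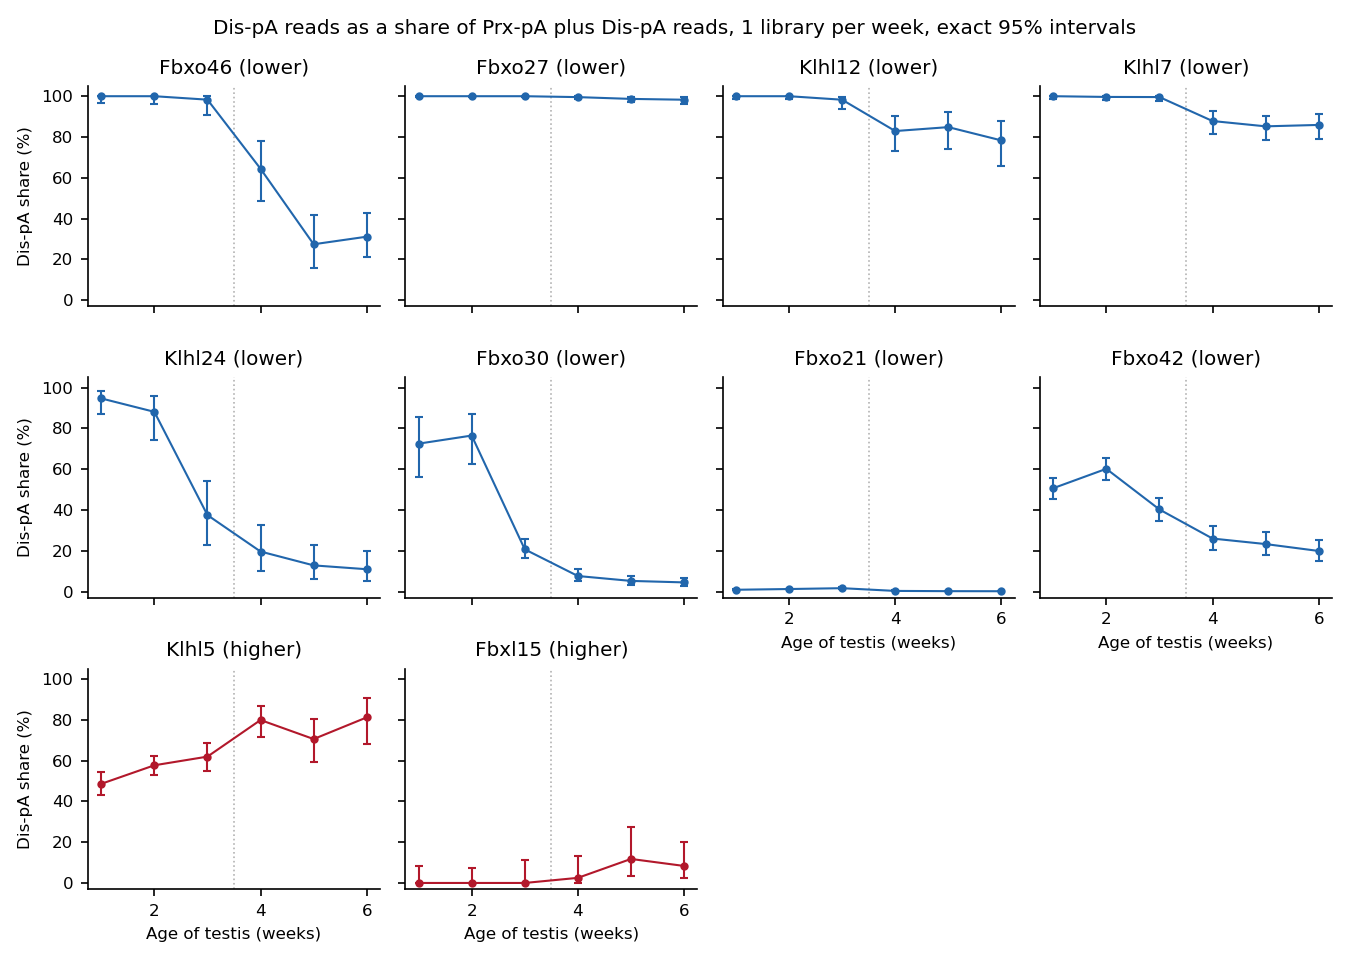
Dis-pA reads as a percentage of Prx-pA plus Dis-pA reads at each week in 8 of the genes with a lower ratio in 4–6 week samples (blue) and the 2 with a higher one (red), with exact 95% binomial intervals and a dotted line between 1–3 week and 4–6 week samples. Klhl24 and Fbxo30 fell at 3w, Fbxo46 fell after 3w, and in Fbxo27 and Fbxo21 the share moved by little, with nearly all reads at 1 pA.

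In Fbxo30 and Klhl24 a pA close to the stop codon held most reads in 4–6 week samples. Fbxo30, which in mice acts on the mitotic kinesin Eg5, had a Dis-pA share of 7.65%, 5.25% and 4.52% at 4–6w and 72.5%, 76.5% and 20.7% at 1–3w. The 3w library was therefore the first to change. The ratio fell by 4.24 ± 0.89 on the log2 scale (adjusted p = 0.00428), and it fell by 3.51 to 5.60 with each library left out. Its Prx-pA lies 101 nt after the stop codon and its Dis-pA 1545 nt after it, with 6 further pAs in the last exon. Over all these pAs the mean 3'UTR size, weighted by reads, was 281, 248 and 220.5 nt at 4–6w, against 1196, 1242 and 497 nt at 1–3w. Reads of its Prx-pA were 338, 451 and 570 at 4–6w and 11, 12 and 241 at 1–3w. Its Dis-pA had 28, 25 and 27 reads at 4–6w and 29, 39 and 63 at 1–3w. Both are raw counts from libraries of unequal depth, and a change in the level of the Dis-pA transcript alone was not tested.

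Klhl24, which binds keratin 14 in human skin, had a Dis-pA share of 19.6%, 12.9% and 11% at 4–6w, against 94.7%, 88.1% and 37.5% at 1–3w. Its log2 change was −4.47 ± 1.06 (adjusted p = 0.00856), and the Prx-pA with AATAAA shown above had 45, 61 and 73 reads at 4–6w and 4, 5 and 25 at 1–3w. The read-weighted 3'UTR averaged 987, 581 and 512 nt at 4–6w and 2913 and 2633 nt at 1w and 2w, with too few reads at 3w. When the most distal pA with at least 5% of the reads was set against all others, the ratio of Klhl24 was not called (log2 change −1.77, adjusted p = 0.193). The expression of Klhl24 itself was not called (log2 change 1.04 ± 0.35, adjusted p = 0.0525).

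**Figure D3:**
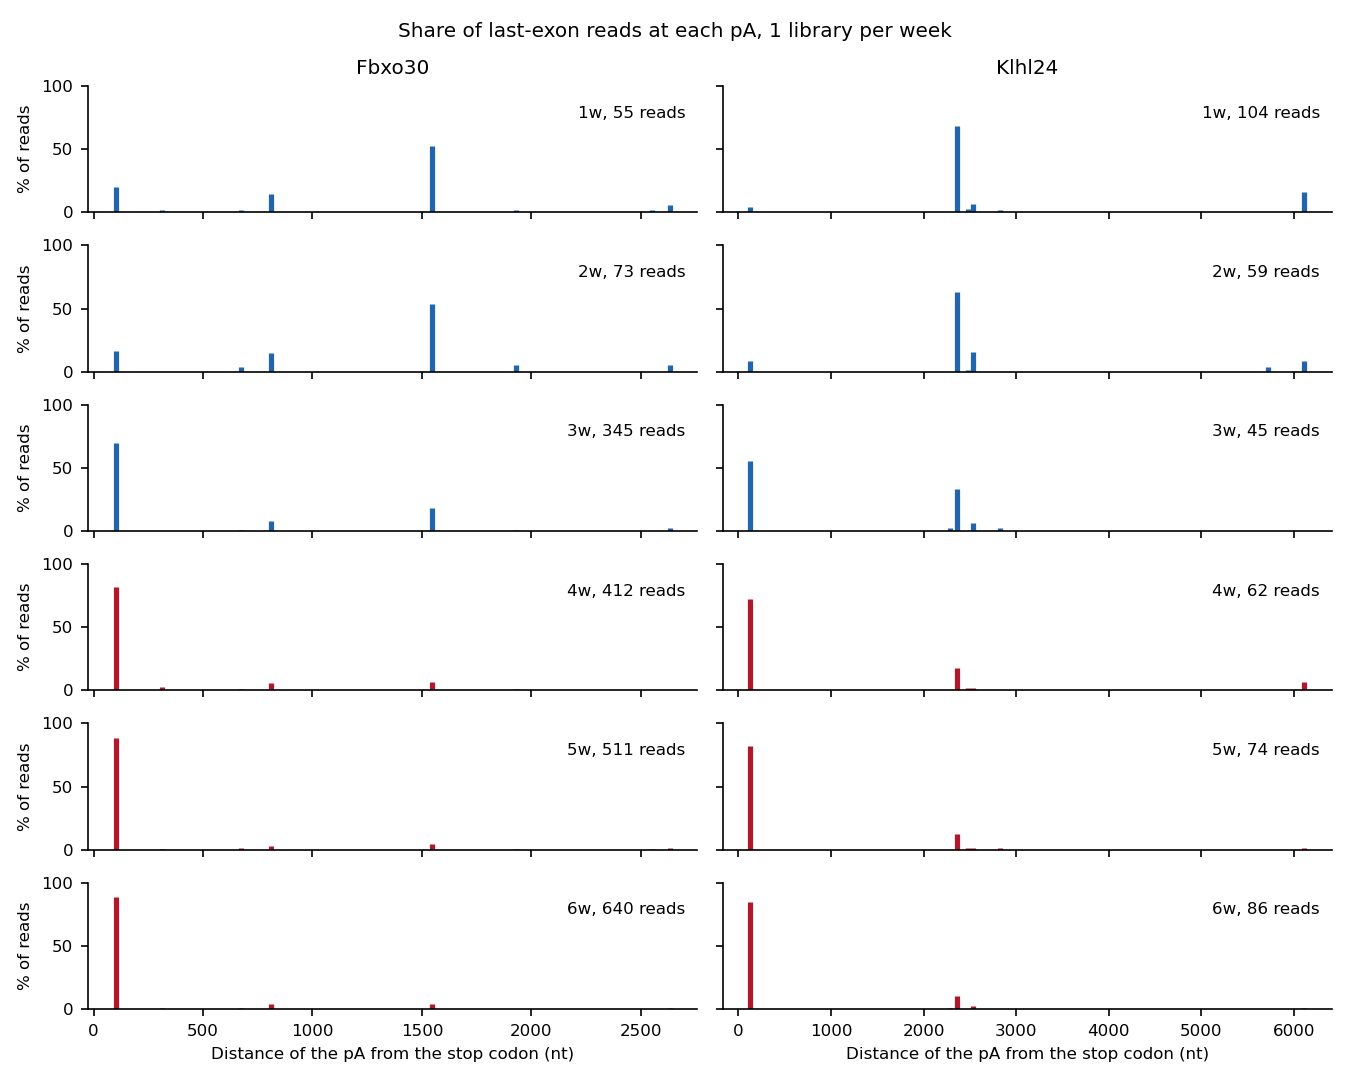
Percentage of the last-exon reads of Fbxo30 (left) and Klhl24 (right) at each pA, by its distance from the stop codon in nt, at each week (1–3 week in blue, 4–6 week in red, number of reads given). In Fbxo30 the pA at 101 nt and in Klhl24 the pA at 128 nt became the tallest from 3w on, while the pAs at 1545 and 2361 nt were the tallest at 1w and 2w.

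In Fbxo46, Klhl12 and Klhl7 the Prx-pA was nearly silent before 4w. The Prx-pA of Fbxo46 had 16, 37 and 53 reads at 4–6w and 0, 0 and 1 at 1–3w, and the Dis-pA share was 64.4%, 27.5% and 31.2% at 4–6w and 100%, 100% and 98.3% at 1–3w. Over the groups the share was 38.7% (95% exact binomial interval 31.4–46.4%) in 4–6 week samples and 99.6% (97.9–100%) in 1–3 week samples, and such intervals cover counting error only. The adjusted p was 0.000292, and the read-weighted 3'UTR averaged 681, 399.7 and 429 nt at 4–6w and 1014, 972.5 and 999 nt at 1–3w. Expression of Fbxo46 was not called (log2 change 0.39, adjusted p = 0.328). Klhl12, a Cul3 adaptor that in human cells modifies the COPII coat protein Sec31, had 14, 10 and 13 Prx-pA reads at 4–6w and 0, 0 and 2 at 1–3w. Its Dis-pA share was 82.9%, 84.8% and 78.3% at 4–6w and 100%, 100% and 98.3% at 1–3w (adjusted p = 0.000893). Klhl7, mutated in a human form of retinitis pigmentosa, had 18, 22 and 19 Prx-pA reads at 4–6w and 0, 1 and 1 at 1–3w, with shares of 87.8%, 85.2% and 85.9% at 4–6w and 100%, 99.6% and 99.6% at 1–3w (adjusted p = 0.000205). The fitted changes of these genes rest on 1 or 2 Prx-pA reads in 1–3 week samples and are not given as sizes. In each of the 3 genes every 4–6 week library was below every 1–3 week library, and Klhl12 and Klhl7 still used the Dis-pA for most transcripts at 6w.

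Fbxo27 changed by little although its call was firm. Its Prx-pA had 3, 6 and 5 reads at 4–6w and 0 of 4943 reads of the pair at 1–3w. That 0 allows a share of up to 0.0607%, against a Prx-pA share of 0.991% in 4–6 week samples (adjusted p = 0.00187). The share of 0.991% rests on 14 reads, so no fold change is given. Exact binomial intervals of the Dis-pA share were 98.3–99.5% in 4–6 week samples and 99.9–100% in 1–3 week samples. More than 98% of its reads remained at the Dis-pA in each library. Fbxo42, which in human cells acts on p53, had shares of 26.0%, 23.3% and 19.9% at 4–6w and 50.7%, 60.2% and 40.3% at 1–3w (log2 change −1.76 ± 0.44, adjusted p = 0.0106). Its pAs lie 234 and 3493 nt after the stop codon, so the read-weighted 3'UTR averaged 1073, 992 and 883 nt at 4–6w and 1882, 2181.5 and 1537 nt at 1–3w.

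Fbxo21, the most abundant of these genes, used its distal pAs less in 4–6 week samples. Only the sign of the fitted change depended on which pA was the numerator. Its pA 494 nt after the stop codon held 4301, 4780 and 4118 reads at 4–6w and 7256, 10463 and 4606 reads at 1–3w. The pA paired with it, 2004 nt after the stop codon, held 0.348%, 0.230% and 0.194% of the pair at 4–6w and 0.915%, 1.27% and 1.69% at 1–3w (log2 change −2.31 ± 0.43, adjusted p = 0.00221). Neither pA beyond 494 nt held 5% of its reads, so the alternative that sets the most distal pA with at least 5% against all others put the pA at 494 nt in the numerator and gave a log2 change of 2.41 (adjusted p = 0.000825). The pA at 1811 nt, which is not in the pair, had 16, 6 and 8 reads at 4–6w and 100, 112 and 55 at 1–3w.

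Klhl5 and Fbxl15 went the other way. Klhl5 had a Dis-pA share of 79.8%, 70.5% and 81.1% at 4–6w and 48.6%, 57.7% and 61.9% at 1–3w (log2 change 1.41 ± 0.45, adjusted p = 0.0339). Its pAs are only 80 nt apart (1079 and 1159 nt), so its 3'UTR changed by little. Fbxl15 had 1, 4 and 4 Dis-pA reads at 4–6w and 0 of 121 reads of the pair at 1–3w. That 0 allows a share of up to 2.48%, against 7.38% in 4–6 week samples (adjusted p = 0.0393). This call rests on 9 reads. Exact binomial intervals of the Dis-pA share were 3.43–13.5% in 4–6 week samples and 0–3.00% in 1–3 week samples. The Dis-pA of Fbxl15 held less than 5% of its last-exon reads. The alternative with the most distal pA that held at least 5% thus put the Prx-pA at 154 nt in the numerator. It gave a log2 change of −5.06, the same shift with the ratio turned over. Both calls were lost when 1w, 2w, 5w or 6w was left out, and that of Klhl5 also without 4w, with adjusted p up to 0.117 for Klhl5 and 0.118 for Fbxl15.

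The 22 genes that were not called held several with stable usage over the 6 weeks. Fbxw11 had a Dis-pA share of 55.4%, 47.3% and 56.5% at 4–6w and 56.8%, 54.4% and 58.6% at 1–3w while its level fell. Klhl36 had 60.9%, 62.5% and 52.0% at 4–6w and 63.0%, 62.7% and 61.1% at 1–3w. Fbxo28 and Fbxo3 had higher Dis-pA shares in each 4–6 week library without passing the test (adjusted p = 0.146 and 0.284). The read-weighted 3'UTR of Fbxo28, over all 7 of its pAs, was shorter in each 4–6 week library (1976, 1734 and 1798 nt at 4–6w and 2048, 2074 and 2005 nt at 1–3w), and its pAs at 215 and 405 nt are outside the pair. In 25 F-box and Kelch-like genes at least 50 last-exon reads were placed after the stop codon in every library. The median of their weighted mean 3'UTR sizes was 966, 946 and 943 nt at 4–6w and 1112, 1145 and 1086 nt at 1–3w. These medians are the values of single genes, Klhl7 at 1w to 4w and Fbxo27 at 5w and 6w. Each 4–6 week library was below each 1–3 week library in 12 of the 25 genes, and above in 0. In 7 of these 12 the mean difference was over 50 nt. Genes with 1 pA, such as Fbxl5 and Fbxw9, could not change. The share over all genes was not computed.

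**Figure D4:**
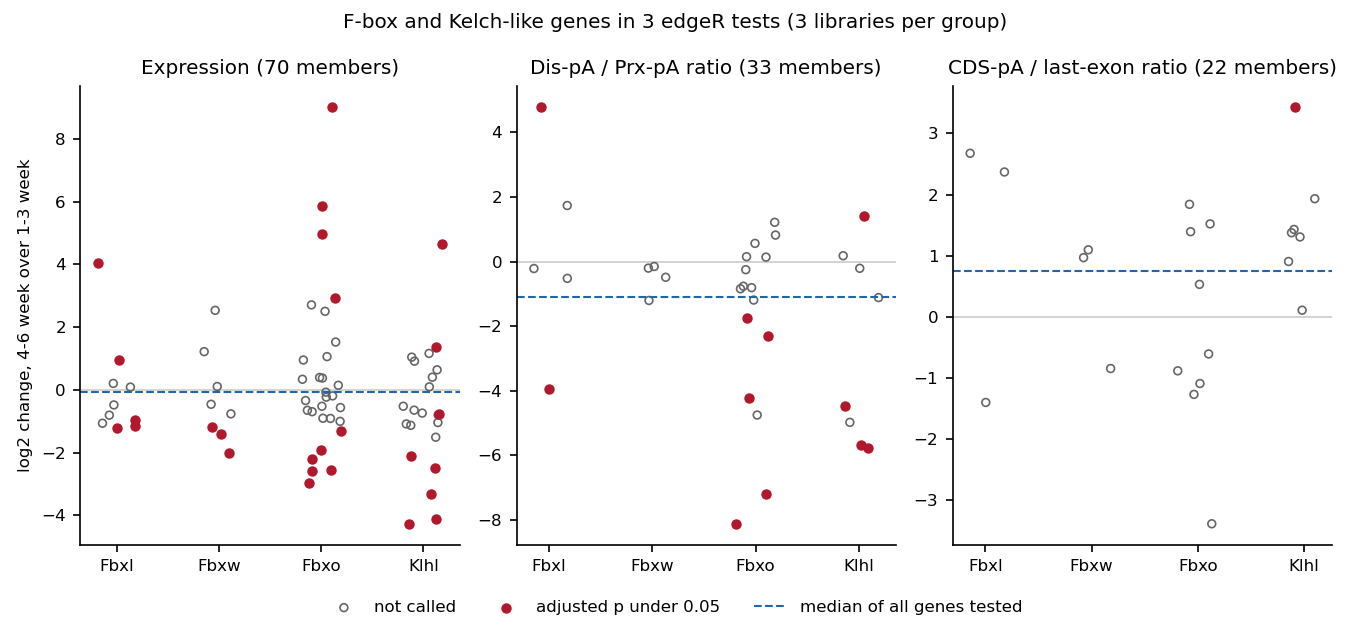
Log2 change in 4–6 week over 1–3 week samples of every F-box and Kelch-like gene tested for expression (70 genes), Dis-pA to Prx-pA ratio (33 genes) and CDS-pA to last-exon ratio (22 genes), by class, with filled points for genes called by edgeR and a dashed line at the median of all genes tested. The dashed line lies at −0.07, −1.11 and 0.75, and genes of each class lie on both sides of it in the expression panel.

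APA in introns and upstream exons changes the coding sequence (CDS-APA). The 98 intronic pAs of F-box and Kelch-like genes had 250, 288 and 364 reads at 4–6w and 323, 450 and 262 at 1–3w, or 1.53%, 1.80% and 2.54% of their intronic plus last-exon reads at 4–6w and 1.02%, 1.34% and 1.11% at 1–3w. Of the 66 genes with at least 100 such reads, 13 had more than 5% of them in introns (19.7%), and the same held for 19.97% of the 10897 such genes in all. AATAAA stood in the 40 nt before 46.9% of the 98 intronic pAs, against 43.4% of the 16956 intronic pAs of all genes, and 27 of the 98 lay in the first intron. Of the 23 intronic pAs with at least 15 reads, 7 were within 24 nt of an annotated transcript end.

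To test CDS-APA, reads of intronic and upstream-exon pAs (CDS-pAs) were set against last-exon reads in 2437 genes, 22 of them F-box or Kelch-like genes. Klhl7 was the only one of the 22 with a higher ratio in 4–6 week samples (4.55%, where 20.8% of all genes tested were called higher), and 0 were lower (where 4.19% of all genes tested were called lower). At an unadjusted p under 0.05 there were 6, against 915 of the 2437 genes, and DESeq2 called 4 higher and 0 lower, against 588 and 154 of all genes. Their median log2 change was 1.03, against 0.75 for all genes. In 7 of the 22 genes each 4–6 week library had a higher CDS-pA share than each 1–3 week library (31.8%, where it was 31.5% of all genes tested), and in Fbxl19 a lower one (4.55%, where it was 10.8%). The Klhl7 call was lost without 2w (adjusted p = 0.0609), and without 3w 5 genes were higher and 1 lower.

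The intronic pAs with most reads in Klhl7, Fbxo36, Fbxl2 and Klhl10 are shown with the same windows as above, the last 3 chosen after their values were seen.
Klhl7 intronic pA, chr5:23616522-23616551, + strand: cctccacaccgtggaccctccAATAAAcct
Fbxo36 intronic pA, chr1:84844609-84844638, + strand: tatgtctctacaaaaataccacatgatgtt
Fbxl2 intronic pA, chr9:113928416-113928445, - strand: aagtatctttAATAAAgctggttacagtta
Klhl10 intronic pA, chr11:100307291-100307320, + strand: gtctgctgattgtaatgccgTATAAAtatg
The Klhl7 site had AATAAA 19 nt before the pA, and the Fbxo36 site had no hexamer of the list.

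Klhl7 used its intronic pA increasingly with age. The pA is in the first intron, upstream of which 6.83% of the coding sequence lies, and it had 19, 15 and 24 reads at 4–6w and 1, 1 and 8 at 1–3w. As a share of intronic plus last-exon reads this was 10.7%, 8.98% and 14.5% at 4–6w and 0.389%, 0.341% and 3.23% at 1–3w. The log2 change was 3.44 ± 0.85 (adjusted p = 0.0103), and over the groups the share was 11.4% (8.75–14.5%) in 4–6 week samples and 1.25% (0.603–2.29%) in 1–3 week samples. The groups did not overlap, and Klhl7 is thereby the one gene called in both the Dis-pA to Prx-pA test and the CDS-APA test. Its expression was not called (30.2, 25.3 and 20.3 RPM at 4–6w and 55.7, 68.9 and 52.2 RPM at 1–3w, log2 change 0.10).

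Among the genes with the highest intronic shares, Fbxo34 and Klhl25 also had higher shares in each 4–6 week library. Fbxo34 had 22.4%, 32.5% and 37.0% at 4–6w and 7.50%, 8.33% and 16.7% at 1–3w, from 11, 13 and 17 intronic reads at 4–6w and 3, 5 and 9 at 1–3w (log2 change of the CDS-pA ratio 1.84 ± 0.73, adjusted p = 0.0810). Its 3 intronic pAs with most reads lie in the first intron. Klhl25, which in human cells targets the translation inhibitor 4E-BP1, had 25.0%, 34.1% and 34.0% at 4–6w and 8.16%, 15.9% and 21.6% at 1–3w (log2 change 1.37 ± 0.73, adjusted p = 0.186). Its main intronic pA lies after the whole coding sequence, in the last intron, at an annotated transcript end, so the protein is not altered there. Upstream of its coding sequence, in the first intron, a pA with 13 reads had 4, 3 and 6 at 4–6w and a pA with 9 reads had 2, 3 and 4, and neither had a read at 1–3w.

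**Figure D5:**
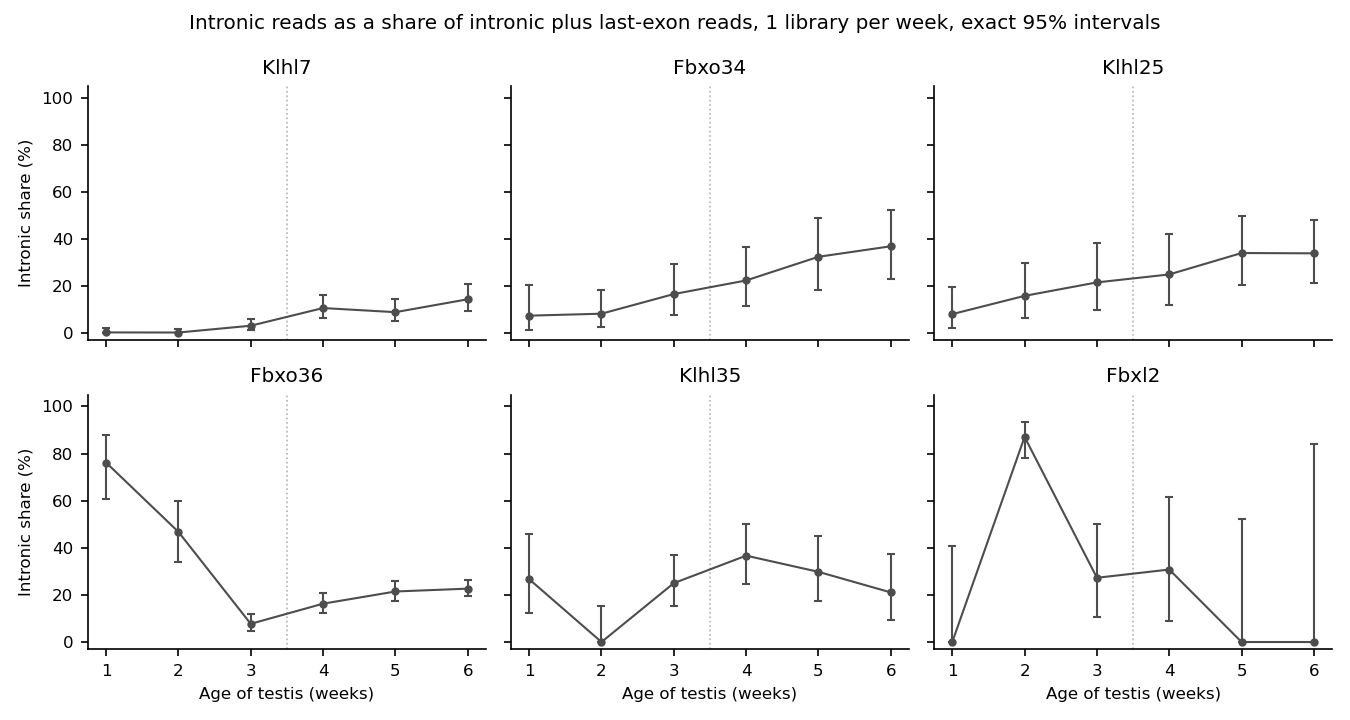
Intronic reads as a percentage of intronic plus last-exon reads at each week in Klhl7 and 5 of the genes with the highest intronic shares, with exact 95% binomial intervals and a dotted line between 1–3 week and 4–6 week samples. Klhl7, Fbxo34 and Klhl25 were higher in each 4–6 week library, Fbxo36 was highest at 1w, and the 2w library stood apart in Fbxl2.

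Fbxo36 had the most intronic reads, 354 in all, and its share depended on both ends of the gene. The share was 16.3%, 21.4% and 22.7% at 4–6w and 76.2%, 46.8% and 7.72% at 1–3w, so the 3w library was below each of the others. Intronic reads were 55, 86 and 133 at 4–6w and 32, 29 and 19 at 1–3w, while last-exon reads were 283, 315 and 454 at 4–6w and 10, 33 and 227 at 1–3w. The CDS-pA ratio was not called (log2 change −1.27 ± 1.03, adjusted p = 0.392). The site in the first intron shown above held 50, 73 and 127 of the reads at 4–6w and 13, 14 and 15 at 1–3w, whereas a site upstream of it, at position 84844367 of chromosome 1, held 0, 3 and 0 at 4–6w and 12, 10 and 2 at 1–3w.

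Of the genes with at least 100 intronic plus last-exon reads Fbxl2 had the highest intronic share, 62.7% of 134 reads (95% exact binomial interval 53.9–70.9%), but 74 of its 84 intronic reads came from the 2w library, where the share was 87.1%. The pA is in the first intron, and 0.236% of the coding sequence lies before it. Klhl35 had 36.7%, 29.8% and 21.1% at 4–6w and 26.7%, 0% and 25.0% at 1–3w, where 0 of 22 reads at 2w allows a share of up to 13.6% (adjusted p of the CDS-pA ratio = 0.485). Fbxl19, a CXXC-domain protein that binds CpG islands, had 14.3% intronic reads in all, 7.25%, 6.12% and 6.52% at 4–6w and 16.2%, 16% and 16.6% at 1–3w, in which its groups did not overlap (log2 change −1.41 ± 0.64, adjusted p = 0.126). Its only intronic pA lies in intron 7, with 64.3% of the coding sequence before it. Fbxo11, Fbxl13, Klhl2 and Fbxo8 had 9.14%, 8.31%, 7.26% and 6.63% intronic reads over all libraries.

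Of the genes called higher in expression, Klhl10 and Fbxl13 had intronic pAs with more reads in each 4–6 week library. Fbxo44 and Fbxl15 had 1 intronic pA each, whose reads overlapped between the groups. These were 1, 3 and 6 reads at 4–6w and 1, 1 and 0 at 1–3w for Fbxo44. For Fbxl15 they were 1, 0 and 0 at 4–6w and 1, 0 and 1 at 1–3w. Fbxo39, Fbxo24, Fbxo2 and Klhl8 had no intronic pA. The Klhl10 pA in intron 2, at the end of an annotated short transcript that keeps 37.5% of the coding sequence, had 16, 24 and 32 reads at 4–6w and 1, 2 and 2 at 1–3w. A pA in intron 7 of Fbxl13, with 31.6% of the coding sequence before it, had 19, 21 and 23 reads at 4–6w and 0, 0 and 4 at 1–3w. Last-exon reads of Klhl10 and Fbxl13 rose as well, and their intronic shares overlapped between the groups. As a share of intronic plus last-exon reads, Klhl10 had 4.43%, 4.16% and 4.51% at 4–6w and 12.5%, 33.3% and 2.68% at 1–3w. Fbxl13 had 8.50%, 7.79% and 9.12% at 4–6w and 20%, 0% and 6.67% at 1–3w. The 1w and 2w shares rest on 5 to 8 reads each. Klhl10 and Fbxl13 had fewer than 20 reads in early libraries and were not in the CDS-APA test. Fbxo47 had intronic reads and no last-exon read, with 1, 2 and 4 reads at 4–6w and 7, 7 and 1 at 1–3w.

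The genes these adaptors work with were looked at in a list of 35 gene symbols of the cullin-RING ligase core and the neddylation that activates it. Skp1 and Skp1a are both listed and name the same gene. Of the 35 symbols, 34 are in the table and 32 were tested for expression. Of these, 3 were higher and 3 lower in 4–6 week samples (9.38% each, where 17.7% of all genes tested were called higher and 22.5% lower), with a median log2 change of 0.18, against −0.07 for all genes. Higher were Rnf7, a RING subunit (45.7, 35.1 and 51.3 RPM at 4–6w and 21.1, 23.6 and 35.5 RPM at 1–3w, log2 change 2.03 ± 0.44), the NEDD8-conjugating enzyme gene Ube2f (1.46 ± 0.33) and Dcun1d4, a member of the family of NEDD8 ligases (2.71 ± 0.45). Lower were Cul7 (−2.42 ± 0.66), Uba3, a subunit of the NEDD8-activating enzyme (−0.89 ± 0.27), and Dcun1d2 (−1.48 ± 0.40). In RPM Rnf7 and Ube2f overlapped between the groups, Ube2f at 24.7, 24.1 and 19.6 at 4–6w and 15.7, 21.9 and 23.5 at 1–3w. Not called were Skp1a, Cul1, Cul2, Cul3, Cul4a, Cul4b, Cul5, Rbx1, Cand1, Cand2, Nedd8, Ube2m, Nae1, Dcun1d1, Dcun1d3, Dcun1d5, Glmn, Gps1, Cops2, Cops3, Cops4, Cops5, Cops6, Cops7a, Cops7b and Cops8.

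Dis-pA usage relative to the Prx-pA fell in 7 and rose in 0 of the 23 core genes tested with edgeR (30.4% lower, where 34.5% of all genes tested were called lower), with a median log2 change of −0.58, against −1.11 for all genes. These 7 were the adaptor and scaffold of the SCF, Skp1a (Dis-pA share 22.3%, 19.9% and 10.3% at 4–6w and 34.6%, 40.04% and 42.2% at 1–3w) and Cul1 (62.6%, 59.9% and 48.2% at 4–6w and 73.7%, 78.3% and 73.8% at 1–3w), the scaffold Cul4b, the NEDD8 ligase family genes Dcun1d3, Dcun1d4 and Dcun1d5, and the COP9 signalosome gene Cops2. The largest shift was that of Dcun1d4, at 28.7%, 13.6% and 11.6% at 4–6w and 100%, 100% and 93.8% at 1–3w. In the CDS-APA test 1 of 16 was higher (6.25%, where 20.8% of all genes tested were called higher), Dcun1d1, whose CDS-pAs held 45.6%, 69.8% and 77.0% of reads at 4–6w and 0% in each 1–3 week library (adjusted p = 0.000315 in edgeR). Among 29 adaptors of both kinds with other names, 24 were tested for expression, of which 5 were higher and 5 lower, 11 for the Dis-pA to Prx-pA ratio, of which 0 were higher and 5 lower, and 5 for CDS-APA, of which 1 was higher. As shares these were 20.8% higher and 20.8% lower for expression, 45.5% lower for the Dis-pA to Prx-pA ratio (34.5% over all genes) and 1 of 5 for CDS-APA (20.8% over all genes). Btbd10 had the largest of these changes in expression, at 899, 1142 and 979 RPM at 4–6w and 37.4, 51.0 and 121 RPM at 1–3w, and the F-box gene Skp2, which targets the cyclin-dependent kinase inhibitor p27, had 23.9, 39.1 and 40.4 RPM at 4–6w and 13.9, 8.26 and 3.92 RPM at 1–3w.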

How the data were processed

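Total testis RNA was sequenced by 3'READS, with 1 library per week of age. Bowtie 2 (version not given in the sources used here) placed reads on mm9, after which the authors kept PASS reads, which carry at least 2 T bases that do not align, merged pAs that lay within 24 nt, and deposited raw counts of PASS reads per pA and library with no normalization. Reads of molecules amplified by PCR are not independent, and intervals (exact binomial, 95%) cover counting error only. Each library had 3497870 to 5427850 reads in single genes, and the 1053 pAs given to several genes were left out (none of them of an F-box or Kelch-like gene).

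Groups came from the age labels, 3 libraries against 3. Expression was tested on last-exon counts with edgeR 4.0.16 (quasi-likelihood test, TMM, filterByExpr) in R 4.3.3. Ratios (Dis-pA to Prx-pA, and CDS-pA to last-exon reads) were tested in edgeR with a term per library, in genes with at least 20 reads in every library and, for CDS-APA, at least 5 CDS-pA reads in all. P-values were adjusted by Benjamini-Hochberg over all genes, with a threshold of 0.05, and adjusted p-values in the text are from edgeR unless DESeq2 is named. SE was derived from the change and its F statistic. Exact permutation of 3 against 3 libraries cannot go below p = 0.1 and was not used. RPM are relative to the study's PASS read totals. 3'UTR sizes, introns and sequences come from the NCBIM37 (mm9) annotation and genome. Tests were also run on simulated data that had no change with age within a group. That run therefore does not cover groups made of different ages. Tables and figures used Python 3.11.15, pandas 2.3.3, scipy 1.17.1 and matplotlib 3.10.9.

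Genes were named by a rule: up to 10 called genes with the largest changes in each direction of each test, the 5 with most reads, the 10 with the highest intronic share among those with at least 100 reads, and the ligase core list. A gene that met the rule is not reported here. Fbxo6, Fbxo43, Fbxw5, Fbxw11 and Klhl36 pA usage, Fbxo28, Fbxo3 and the uncalled expression of Fbxo30 and Fbxo36 were added after their values were seen. The genes and lists were chosen with earlier results of these data known. Alternatives were DESeq2 1.42.0, other scalings, filters, read minimums and pA definitions, week as a number, and leaving out each library.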

Additional observations from a re-analysis of the deposited data

Results flagged for a closer look

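Reads on the opposite strand upstream of the start site were in none of the comparisons and reached 2481 over the 6 libraries, from 57 pAs of 34 F-box and Kelch-like genes, which is above the 3 counts that a count of 0 allows. They came to 567, 627 and 797 reads at 4w, 5w and 6w, against 97, 109 and 284 at 1w, 2w and 3w. Fbxo43 had 811 of them (191, 238 and 276 at 4–6w and 1, 5 and 100 at 1–3w), Klhl24 had 442 (101, 118 and 159 at 4–6w and 3, 2 and 59 at 1–3w), and Fbxo39 had 208 (49, 74 and 84 at 4–6w and 0, 0 and 1 at 1–3w). Klhl9 had 123 such reads and was higher at 1w and 2w (17, 5 and 16 at 4–6w and 36, 36 and 13 at 1–3w). All these are raw counts from libraries of unequal depth, and the change over all genes is not given here. The study reports that such antisense transcripts rose globally during spermatogenesis, so the rise is not shown to be particular to these genes. These reads were not tested.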

How the results depend on the processing

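No paired analysis was possible because the replicate numbers only name weeks and the groups hold different weeks. Of 70 genes, 8 were higher in expression, and 16 with DESeq2 and 15 with week as a number. The 18 lower became 48 with the study's totals. With a library left out the counts were 4–18 higher (18 without 3w) and 0–29 lower (0 without 5w or 6w, 29 without 3w). Over all genes, DESeq2 called 3310 higher and 3015 lower and the study's totals 1079 and 6189, against 1990 and 2541. Fbxl15 had a log2 change of −0.41 with the study's totals. For the Dis-pA to Prx-pA ratio, a minimum of 50 reads left 18 genes to test, of which 1 was higher and 5 lower, and leaving out a library gave 0–2 higher and 8–10 lower. With the most distal pA against all others Fbxo21 changed by 2.41 and Fbxl15 by −5.06, and in both the Prx-pA was then the numerator. For CDS-APA, 4 genes were higher with DESeq2 and 2 with at least 20 CDS-pA reads, and leaving out a library gave 0–5 higher and 0–1 lower (5 and 1 without 3w). Where the text gives no value, the cause was not tested. Genes with under 20 reads per library could not enter the ratio tests.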
